A study of Mus musculus with 2 samples.

Results

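Integrins, laminins, syndecans, glypicans and other matrix receptors and pericellular matrix proteins were examined in RNA sequencing data from mouse chondrocytes, the cells that make cartilage. The genes were taken by a rule on their names: the numbered integrin alpha and beta subunits, the laminin chains, the syndecans and glypicans, and Fn1, Nid1, Nid2, Hspg2, Ddr1, Ddr2, Dag1 and Cspg4. The deposited table held 47 such genes, and all 47 passed the minimum used here, a mean normalized count of 50, which 12809 of 13138 genes passed. Of 50 protein-coding genes in the annotation that match these names, Gpc5, Itgb2l and Itgb6 were not analysed here.

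Both cultures were primary chondrocytes of strain C57Bl/6 mice, kept ex vivo in micromass, a dense plating under which chondrocytes lay down a cartilage-like matrix. One culture carried the genotype label hdac3-knockout and had been given an adenovirus encoding Cre recombinase, an enzyme that cuts out DNA between loxP sites. The other carried the label wild-type and had been given a GFP control adenovirus, so both had been exposed to adenovirus. The labels do not name the floxed allele, the age of the mice or how many animals or dishes a culture combined. Each group had 1 library, so no test was possible, every difference compares these 2 libraries, and a difference in RNA per cell cannot be told apart from a difference in the number of cells of a type.

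The chondrocyte label was borne out by markers, with Col2a1 at a log2 normalized count of 19.97 in the Cre library and 20.35 in the GFP library. Hdac3, the targeted gene, was at 10.68 and 10.69, so its total level showed no loss under Cre. The terms Cre library and GFP library below give the labels only. The depth of the libraries is unknown, since the table holds log2 values and no counts. Epithelial markers (6 genes) were not in the table and were not analysed here, whereas all 12 macrophage and leukocyte markers were measured, from 9.29 to 14.82 on the log2 scale.

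Integrins are receptors built of an alpha and a beta subunit that span the cell membrane, grip matrix proteins outside and couple them to the actin cytoskeleton inside. Laminins are trimers of an alpha, a beta and a gamma chain that, together with nidogens and perlecan, form basement membranes, and in cartilage they are found in the thin pericellular matrix around each chondrocyte. Syndecans and glypicans are cell surface proteoglycans whose heparan sulfate chains hold growth factors and bind fibronectin. Chondrocytes meet their collagen-rich surroundings mainly through collagen-binding integrins and the discoidin domain receptor DDR2.

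The median of the 47 genes was close to that of all genes, and the few past 1.5-fold went in both directions. At a smaller threshold more of them were lower in the Cre library than higher. All differences are Cre minus GFP on the log2 scale. Their median was -0.02, against 0.00 (-0.00041) over all 12809 genes, and they ranged from -0.62 for Lama2 to 0.90 for Sdc4. At least 1.5-fold higher in the Cre library were 3 of 47 (6.38%): Sdc4, Sdc1 and Itgb2, where 2.25% of all genes were called. At least 1.5-fold lower were 2 of 47 (4.26%), Lama2 and Nid2, where 0.952% of all genes were called. No gene of the 47 reached 2-fold in either direction (0.734% and 0.0703% of all genes did). At a smaller size, a difference of 0.322 or more, the balance differed, with the same 3 genes higher (6.38%, against 6.02% of all genes) and 11 lower (23.4%, against 4.36%). Below 0 lay 26 of 47 (55.3%, against 50.1% of all genes) and above 0 lay 21 (44.7%, against 49.9%). The absolute difference was under 0.1 for 19 of the 47.

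**Figure D1:**
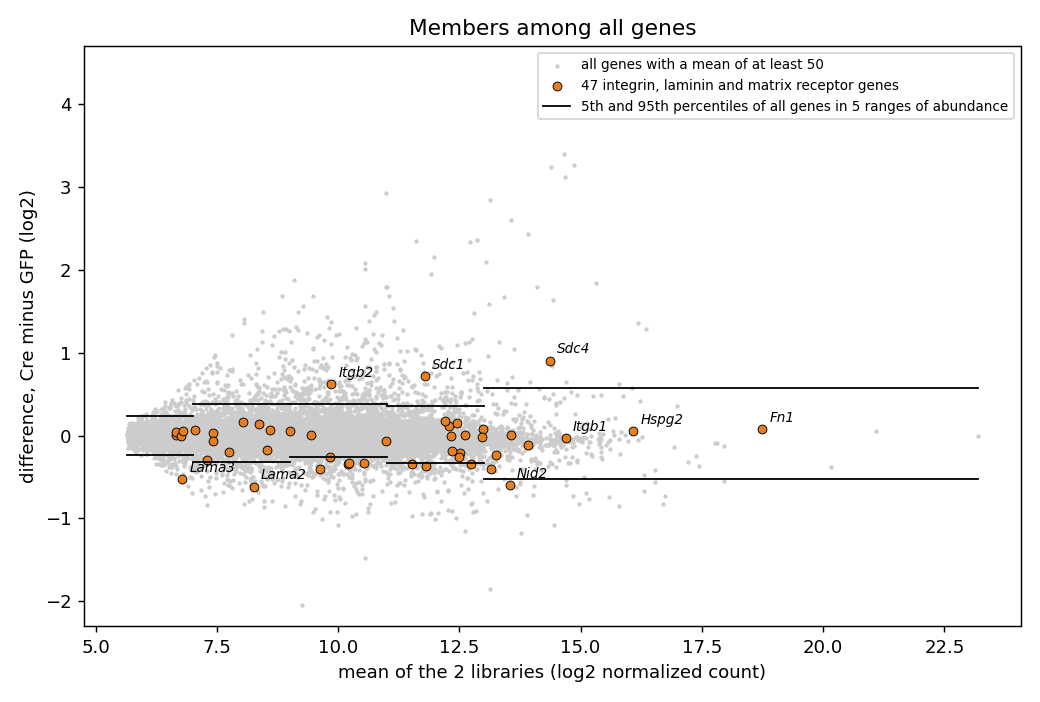
Difference between the libraries (Cre minus GFP, log2) against the mean of both (log2 normalized count) for all 12809 genes in grey and the 47 genes in orange; black lines are the 5th and 95th percentiles of all genes in 5 ranges of abundance. Of the 47, Sdc4, Sdc1 and Itgb2 lie above the upper line, 10 lie below the lower line and 34 lie between.

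Genes of different abundance spread differently in this table, so each gene was also set against genes of its own abundance range. Above the 95th percentile of that range lay 3 of the 47 and below the 5th percentile lay 10. The 10 were Itga1, Itga10, Itga11, Itga3, Lama2, Lama3, Lama5, Nid2, Gpc4 and Gpc6. Gpc3 and Itga2 lay closest above it: Gpc3 differed by -0.261 where the 5th percentile of its range was -0.264, and Itga2 by -0.30 where it was -0.32.

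Syndecan 4 and syndecan 1 were the 2 highest differences among the 47. Sdc4 encodes a widely expressed syndecan that joins integrins in focal adhesions by binding the heparin-binding domain of fibronectin. Sdc1 encodes a syndecan best known from epithelia and plasma cells. Because both genes were higher, the 250 bases before their RefSeq start sites are shown, with those before Itga10, the most abundant collagen-binding alpha subunit per length, which was lower. Sequences are from RefSeq on GRCm38.p6, written 5′ to 3′ in the direction of transcription: Sdc4 at chr2:164443189-164443438 (minus strand), Sdc1 at chr12:8771146-8771395 (plus strand) and Itga10 at chr3:96645334-96645583 (plus strand). Capitals mark matches to the NF-kappaB consensus and to the TATA box letters TATAA.
Sdc4: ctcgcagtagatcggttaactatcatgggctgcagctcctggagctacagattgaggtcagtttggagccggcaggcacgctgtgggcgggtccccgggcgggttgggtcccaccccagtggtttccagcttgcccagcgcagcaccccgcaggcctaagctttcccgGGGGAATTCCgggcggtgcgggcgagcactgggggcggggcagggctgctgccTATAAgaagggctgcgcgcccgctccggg
Sdc1: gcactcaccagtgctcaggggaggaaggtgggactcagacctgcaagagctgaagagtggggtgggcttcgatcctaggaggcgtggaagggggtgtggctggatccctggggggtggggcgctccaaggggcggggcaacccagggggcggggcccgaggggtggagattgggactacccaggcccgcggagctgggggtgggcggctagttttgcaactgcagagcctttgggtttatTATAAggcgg
Itga10: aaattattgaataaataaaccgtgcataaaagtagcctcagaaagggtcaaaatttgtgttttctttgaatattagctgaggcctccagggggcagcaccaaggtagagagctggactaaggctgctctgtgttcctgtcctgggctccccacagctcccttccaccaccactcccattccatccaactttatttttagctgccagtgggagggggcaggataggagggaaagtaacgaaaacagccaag

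The Sdc4 window held 1 match to the NF-kappaB consensus, GGGGAATTCC, from 82 to 73 bases before the start, and TATAA from 29 to 25 bases before it. The Sdc1 window held TATAA from 10 to 6 bases before the start and no match to the NF-kappaB consensus. These positions count from the RefSeq starts, which for both genes differ from the GENCODE starts. The whole Sdc4 window lies inside the GENCODE gene span given below. The Sdc1 window runs past the GENCODE start at 8771323, and its TATAA lies after that start. GC box letters (GGGCGG, searched on both strands) stood 4 times in the Sdc4 window and 3 times in that of Sdc1. None of these letters, nor those of the AP-1 site (TGANTCA, both strands), were in the Itga10 window, and no matches of different motifs overlapped in the windows shown. Among 32851 such windows of all genes, 3.90% held the NF-kappaB consensus (both strands), 16.0% TATAA (on the given strand), 32.7% GGGCGG and 6.75% TGANTCA. RefSeq windows were at hand for 31 of the 47 genes, 37 windows in all, and the NF-kappaB consensus was also found in windows of Ddr1 and Lamb3, which differed by -0.07 and -0.18. A match describes the letters only, and binding was not measured.

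Sdc4 (chromosome 2, 164424247 to 164443887, minus strand, GRCm38) had a log2 normalized count of 14.81 in the Cre library and 13.91 in the GFP library. The difference of 0.90, a fold of 1.87, was the 114th highest of 12809 genes. Sdc1 (chromosome 12, 8771323 to 8793715, plus strand) was at 12.14 and 11.43, a difference of 0.72 (1.64-fold) and the 191st highest. The other syndecans did not share this: Sdc2, a syndecan of mesenchymal cells, was at 13.15 and 13.38, a difference of -0.23, and Sdc3, first known from neural tissue and growing cartilage, was at 13.56 in both libraries. The highest and the lowest syndecan were thus 1.14 log2 units apart within 1 family.

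Per kilobase of exon, Sdc4 was the most abundant syndecan in both libraries. It made up 51.2% of the summed linear syndecan level in the GFP library and 66.1% in the Cre library. Sdc2 went from 25.6% to 15.1% and Sdc3 from 17.1% to 11.8%, while Sdc1 was at 6.14% and 6.96%. The summed level per kilobase was 0.53 log2 units higher in the Cre library. On this scale, which compares levels between genes, Sdc4 exceeded Sdc2 by 1.995-fold (GFP) and 4.39-fold (Cre).

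**Figure D2:**
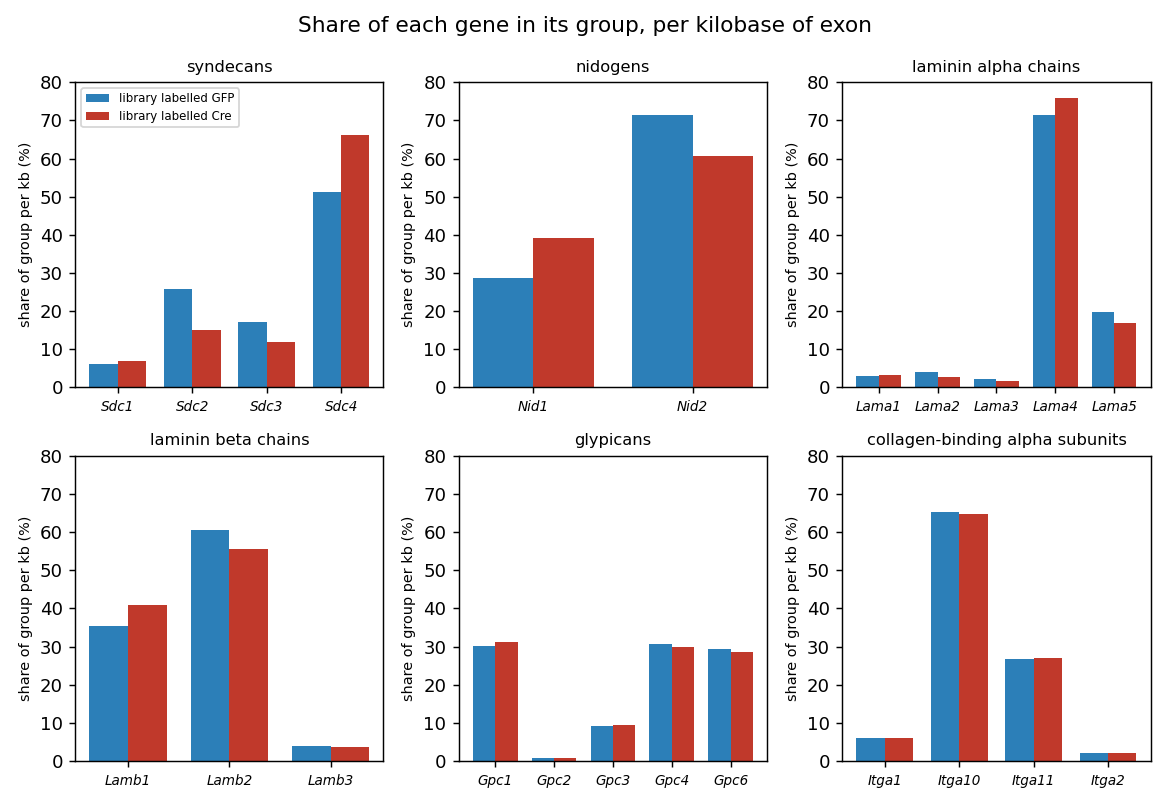
Share of each gene in the summed linear level of its group, in percent, after division by exon length in kilobases; bars are blue for the GFP library and red for the Cre library, with 1 library each. Sdc4 takes 51.2% and 66.1% of the syndecans and Nid2 71.3% and 60.8% of the nidogens, while Itga10 keeps 65.3% and 64.8% of the collagen-binding alpha subunits.

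Glypicans, which are anchored to the membrane by a lipid and shape the spread of hedgehog, Wnt and BMP ligands, leaned lower. Of 5 measured, 4 lay below 0 (50.1% of all genes did), and 2 of these by 0.322 or more (4.36% of all genes did). The median was -0.26. Gpc6, which is mutated in a human skeletal dysplasia with short limbs, was at 12.56 in the Cre library and 12.91 in the GFP library, a difference of -0.35. Gpc4 was at 11.34 and 11.68 (-0.34). Gpc3, whose loss causes an overgrowth syndrome in humans, differed by -0.26, as did Gpc1, at 12.38 and 12.63. Gpc2 was near the lower end of the table at 6.83 and 6.78 (0.05), and 55.6% of its exon bases are shared with an overlapping gene. For Gpc1 that share is 18.9%, and reads from shared bases cannot be assigned with certainty. Per kilobase Gpc1, Gpc4 and Gpc6 each held between 28.6% and 31.3% of the glypican level in both libraries, so the composition moved by at most 1.08 percentage points.

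The 4 collagen-binding alpha subunits were all lower in the Cre library, and by nearly the same amount in the deposited values. Each pairs with the beta 1 subunit, and their differences lay between -0.36 and -0.30 with a median of -0.34. Itga10, the subunit best known from chondrocytes (chromosome 3, 96645584 to 96664519), was at 11.64 in the Cre library and 12.00 in the GFP library, a difference of -0.36. Itga11, a receptor for fibrillar collagens in mesenchymal cells, was at 10.36 and 10.70 (-0.34). Itga1 was at 10.04 and 10.38 (-0.34), and Itga2 at 7.14 and 7.44 (-0.30). None reached 1.5-fold, and 3 of 4 were lower by 0.322 or more. Those 3 lay below the 5th percentile of their abundance ranges, and Itga2, the scarcest of the 4, did not. The deposited values may understate differences of scarce genes, so similar values need not mean equal changes. For Itga10, 33.5% of exon bases are shared with the overlapping gene Gm42957, and the strand setting of the counting is not given in the sources used here.

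Per kilobase, Itga10 was the leading collagen-binding alpha subunit, 2.44-fold (GFP) and 2.39-fold (Cre) above Itga11. Its share of these 4 genes was 65.3% and 64.8%. Chondrocyte markers moved the same way: all 12 measured lay below 0, 11 of them by 0.322 or more; their median was -0.54 and their range from -0.89 (Matn3) to -0.04 (Comp). The log2 of their summed values was 20.67 in the Cre library and 21.12 in the GFP library. The part of this in the integrin differences was not tested.

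**Figure D3:**
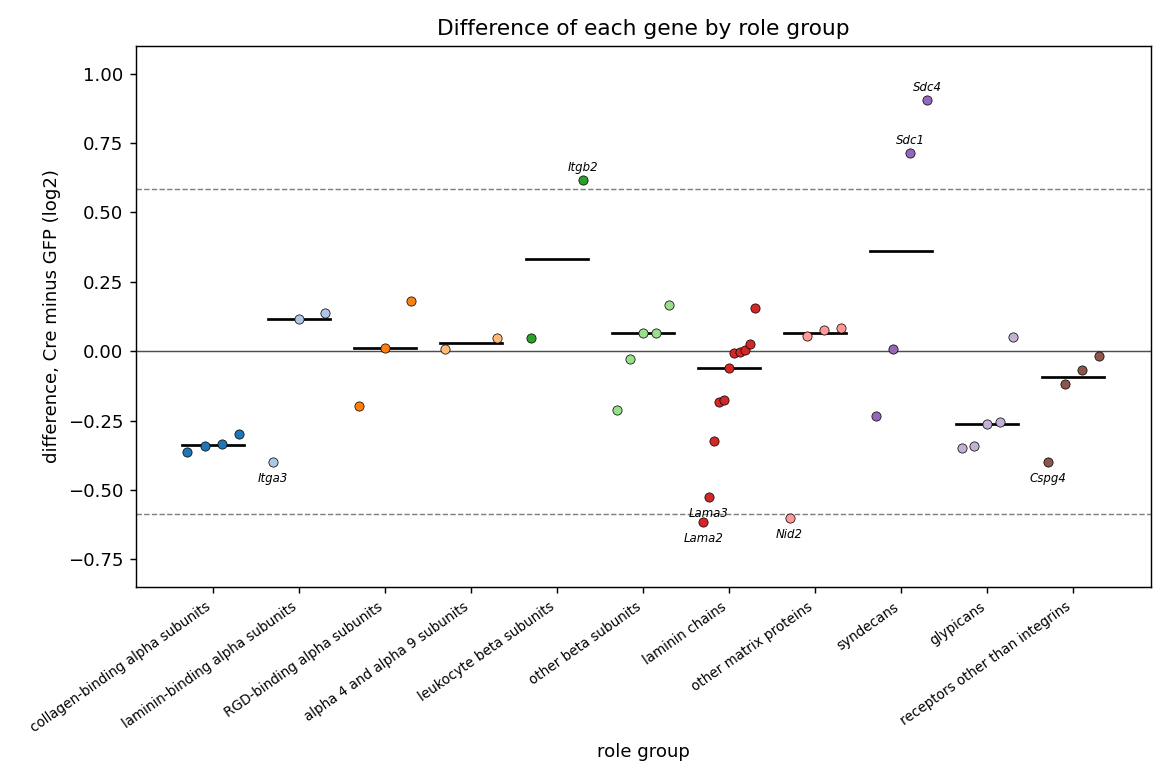
Difference of each of the 47 genes (Cre minus GFP, log2) by role group; points are genes, black bars are medians and dashed lines mark 1.5-fold. The collagen-binding alpha subunits sit together between -0.36 and -0.30, while the syndecans spread from -0.23 to 0.90.

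Among the laminin-binding alpha subunits the direction was mixed. Itga3 was lower, at 9.42 in the Cre library against 9.82 in the GFP library, a difference of -0.40 (1.32-fold). Itga6 was at 12.35 and 12.23 (0.12), and Itga7, the main laminin receptor of muscle, at 8.44 and 8.30 (0.14). The per-length level of Itga6 thus exceeded that of Itga3 by 3.35-fold in the GFP library and 4.80-fold in the Cre library. Beside Itga7, 5 of 8 skeletal muscle markers were measured and all 5 lay above 0, from 0.15 (Mylpf) to 0.67 (Ttn). Their log2 summed values were 11.41 and 10.94. The laminin chain gene Lama2, also linked to muscle, went the other way (-0.62). Myod1, Myog and Ckm were not in the table, and the part of muscle RNA in the Itga7 and Lama2 values was not tested.

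Subunits that recognise the RGD motif of fibronectin and related proteins were close to level. Itga5, which forms the classical fibronectin receptor with beta 1, was at 12.30 in the Cre library and 12.12 in the GFP library, a difference of 0.18. Itgav lies outside the naming rule, and was at 12.89 and 12.76 (0.13). Itga8 differed by -0.20 and the platelet subunit Itga2b by 0.01, both at log2 values under 8. Of 6 platelet markers, 3 were measured, with a median of -0.02: Pf4 at 0.39, Gp1ba at -0.02 and Gp1bb at -0.14. Itga4 and Itga9, which bind fibronectin, VCAM-1 and tenascin C, differed by 0.05 and 0.01. In per-length level Itga5 exceeded Itga10 by 1.14-fold in the GFP library and by 1.67-fold in the Cre library.

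The common beta 1 subunit did not follow its collagen-binding partners. Itgb1 was the most abundant integrin subunit per kilobase in both libraries. It stood at a log2 value of 14.68 in the Cre library and 14.70 in the GFP library, a difference of -0.03. Itgb5, a partner of the alpha V subunit, was at 12.41 and 12.63 (-0.21). Itgb8, which with alpha V activates latent TGF-beta, was at 8.12 and 7.95 (0.17). The epithelial subunit Itgb4 and the osteoclast and platelet subunit Itgb3 each differed by 0.07. Beside Itgb3, 3 of 7 osteoclast markers were measured, with a median of 0.10: Acp5 at 1.04, Ctsk at 0.10 and Atp6v0d2 at -0.04. Per kilobase, Itgb1 exceeded Itgb5 by 3.68-fold (GFP) and 4.18-fold (Cre).

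Itgb2, the beta subunit shared by leukocyte integrins, was the highest integrin difference. It was at 10.16 in the Cre library and 9.55 in the GFP library, a difference of 0.62 (1.53-fold) and the 258th highest of all genes (chromosome 10, 77530252 to 77565708). Its partners carry letters and lie outside the naming rule. Itgam was at 11.08 and 10.504 (0.58) and Itgal at 8.70 and 8.19 (0.51), while Itgax was lower, at 6.78 and 7.17 (-0.39). Itgam shares 68.7% of its exon bases with an overlapping gene. Itgb7, another leukocyte beta subunit, was at 6.68 and 6.63 (0.05).

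Macrophage and leukocyte markers were present in both cultures, and some of them were higher in the Cre library, as Itgb2 was. Of 12 measured, 9 lay above 0; 4 passed 1.5-fold upwards and 1 downwards. Their median was 0.24 and their range ran from -0.73 (Mrc1) to 1.08 (Emr1). The log2 of their summed values was 15.63 in the Cre library and 14.99 in the GFP library, a difference of 0.63. Ptprc, which marks all leukocytes, differed by 0.26, Csf1r by 0.08 and Cd68 by -0.05. The markers lay on both sides of 0, and their part in the Itgb2 difference was not tested.

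**Figure D4:**
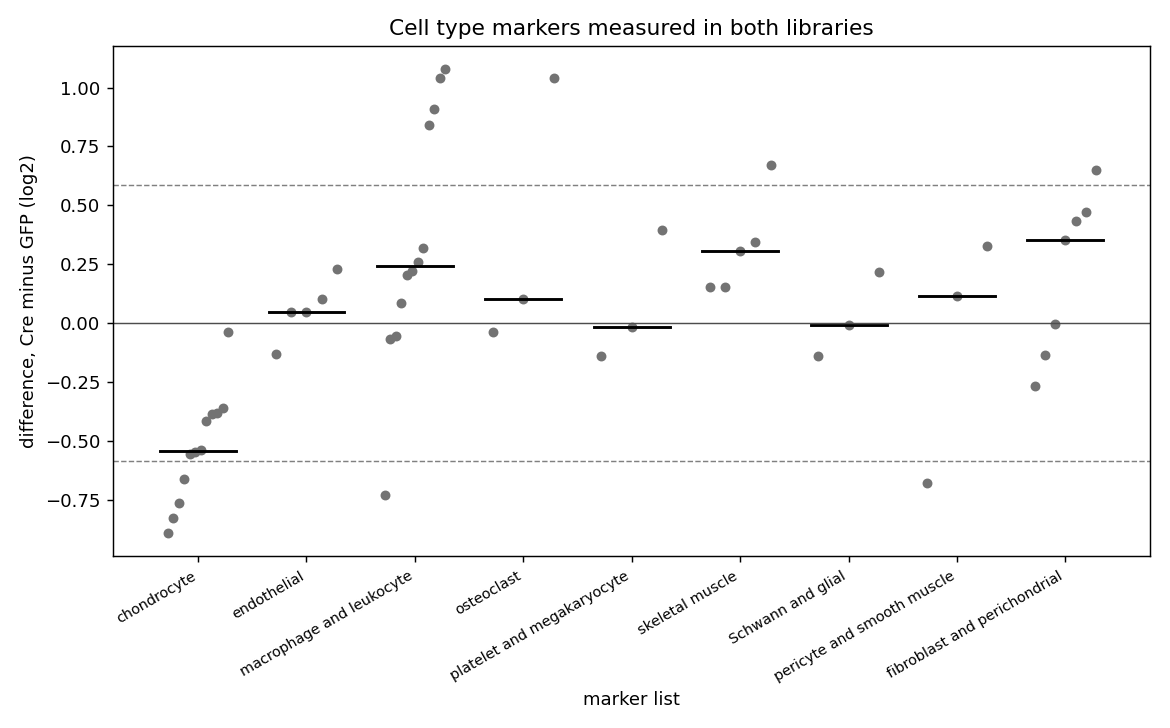
Difference (Cre minus GFP, log2) of cell type marker genes measured in both libraries; points are genes, black bars are medians and dashed lines mark 1.5-fold. Chondrocyte markers all lie below 0 with a median of -0.54, and macrophage and leukocyte markers range from -0.73 to 1.08 with a median of 0.24.

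The abundant laminin chains differed by 0.18 or less, and 3 of 5 alpha chains were lower by 0.322 or more. The abundant trio of this culture per kilobase was Lama4, Lamb1 or Lamb2, and Lamc1. Lama4, an alpha chain of mesenchymal and vascular cells, was at 12.33 in both libraries, and its difference of 0.00 (-0.0021) turned sign under another scaling. Lamc1, the gamma chain of most laminins, was at 12.62 in both. Lamb1 was at 12.53 in the Cre library and 12.37 in the GFP library (0.16), and Lamb2 at 12.27 and 12.45 (-0.18). The share of Lamb1 among beta chains per kilobase was therefore 35.4% in the GFP library and 40.9% in the Cre library.

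Lama2, the alpha chain of muscle and nerve basement membranes whose loss causes muscular dystrophy, was the lowest of the 47 differences. It was at 7.95 in the Cre library and 8.57 in the GFP library, a difference of -0.62 (1.53-fold) and the 102nd lowest of all genes (chromosome 10, 26980036 to 27619758). Lama3, the alpha chain of epithelial anchoring laminin, was at 6.53 and 7.05 (-0.52), the 168th lowest. That is a fold of 1.44, short of the 1.5-fold threshold, where the 5th percentile of its abundance range was -0.23. Lama5 was at 10.07 and 10.39 (-0.33). Its per-length level was 3.63-fold (GFP) and 4.54-fold (Cre) below that of Lama4, which made up 71.4% and 75.9% of the alpha chains.

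The remaining chains were scarce. Lama1 and Lamc3 differed by 0.03 and -0.06, both under a log2 value of 8. Lamb3, a partner of Lama3 in epithelial laminin, was at 8.45 and 8.63 (-0.18). Over 11 laminin chains the median was -0.06, with 8 below 0, 1 past 1.5-fold downwards and 3 lower by 0.322 or more. Of all genes, 50.1%, 0.952% and 4.36% did so. Markers of other cells that can make basement membranes varied by cell type. The 5 of 8 endothelial markers measured had a median of 0.05 and a range from -0.13 to 0.23, and 3 of 6 Schwann and glial markers a median of -0.01. All 5 endothelial markers were scarce, under a log2 value of 8. Tie1 and Esam were each at 5.83 in the Cre library and 5.78 in the GFP library, close to the minimum of 5.64. Pericyte and smooth muscle markers (3 of 6 measured) ranged from -0.68 (Acta2) to 0.33 (Rgs5).

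**Figure D5:**
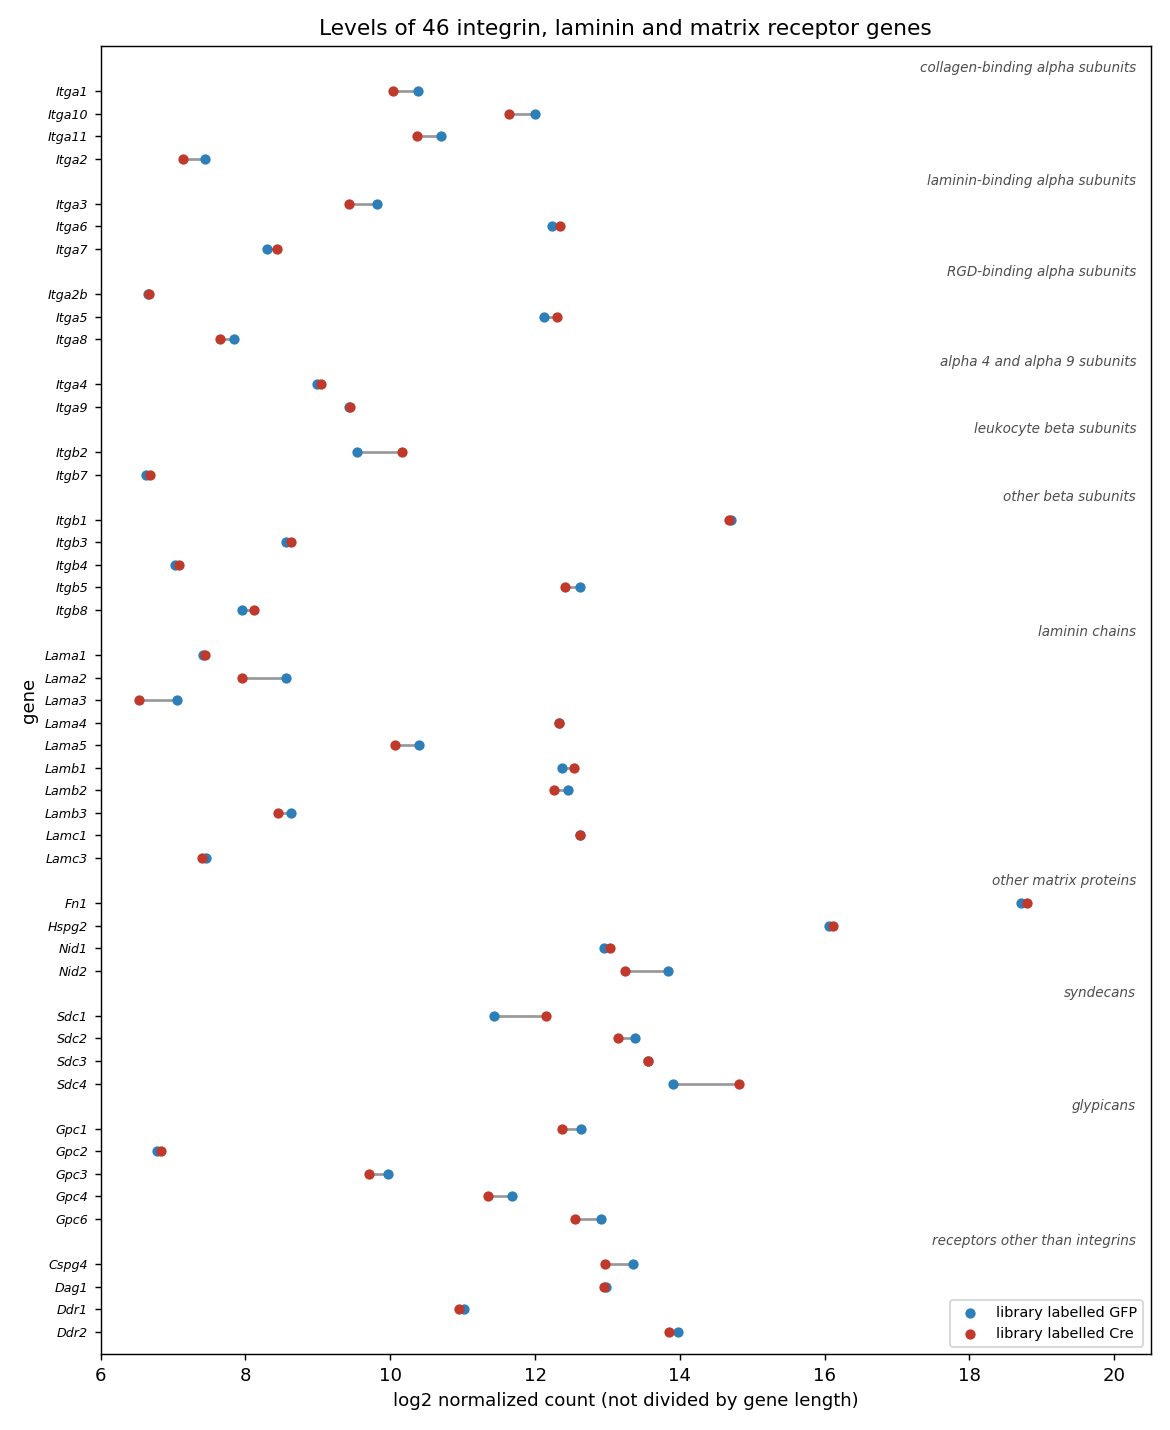
Log2 normalized count of 46 of the 47 genes, not divided by gene length, in the GFP library (blue) and the Cre library (red), by role group; grey lines join the libraries. The longest lines are those of Sdc4, Sdc1, Lama2, Itgb2 and Nid2.

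The nidogens, which link laminin to type IV collagen, parted. Nid2 was at 13.24 in the Cre library and 13.84 in the GFP library, a difference of -0.60 (1.52-fold) and the 110th lowest of all genes (chromosome 14, 19751265 to 19811787). Nid1 was at 13.03 and 12.95 (0.08). Per kilobase, Nid2 exceeded Nid1 by 2.49-fold in the GFP library and by 1.55-fold in the Cre library. Fn1, which encodes fibronectin, the main ligand of the alpha 5 integrin, was the most abundant of the 47 genes per kilobase and close to level, at 18.79 and 18.71 (0.08). Hspg2, which encodes perlecan, a heparan sulfate proteoglycan of the pericellular matrix that cartilage cannot form properly without, was at 16.11 and 16.06 (0.05).

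The 4 receptors other than integrins all lay below 0, where 50.1% of all genes did. Each lay between the 5th and 95th percentiles of its abundance range. Cspg4, which encodes the surface proteoglycan NG2, was at 12.96 in the Cre library and 13.36 in the GFP library (-0.40, 1.32-fold). Ddr2, a receptor tyrosine kinase that fibrillar collagen activates, was at 13.85 and 13.97 (-0.12), and Ddr1 at 10.95 and 11.01 (-0.07). Dag1, which encodes dystroglycan, a laminin receptor, was at 12.96 and 12.97 (-0.02). Per kilobase, Ddr2 exceeded Ddr1 by 3.996-fold (GFP) and 3.85-fold (Cre).

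Genes that work with these receptors were read against the share of all genes past 1.5-fold, 2.25% upwards and 0.952% downwards, which in lists of this size allows few or none. In the integrin adhesion complex, 28 of 30 listed genes were measured and 0 passed 1.5-fold in either direction, with a median of 0.02. Its largest difference was that of Fermt3 (0.55), the kindlin of blood cells, followed by the caveolin gene Cav1 (-0.35) and the tensin gene Tns1 (-0.33). Talin 1 (Tln1) differed by 0.03, focal adhesion kinase (Ptk2) by 0.04 and kindlin 2 (Fermt2) by 0.05. Of 17 measured heparan sulfate enzymes, 0 passed 1.5-fold, with a median of 0.02. Xylt1, which adds the first sugar of the chain, differed by -0.51, the epimerase gene Glce by -0.45 and Hs3st3b1 by -0.43. In the other direction 10 of the 17 lay above 0, the highest being Xylt2 at 0.35. Of 17 genes around dystroglycan, 0 passed 1.5-fold, the largest difference being -0.39 for Sspn.

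Other basement membrane genes and adhesive ligands held larger differences. Among 21 basement membrane genes outside the 47, 0 passed 1.5-fold upwards and 2 downwards, with a median of -0.08. Smoc2 was at 12.35 in the Cre library and 13.17 in the GFP library (-0.82), Fras1 differed by -0.76 and Ntn4 by -0.58. The type IV collagen genes Col4a1 and Col4a2 differed by 0.15 and 0.08. Of 21 adhesive glycoproteins and receptors, 2 passed 1.5-fold upwards and 1 downwards, with a median of 0.02. Icam1, a ligand of the leukocyte integrins that contain Itgb2, was at 11.84 and 10.46 (1.38), and the integrin ligand gene Spp1 at 16.85 and 15.50 (1.36). Thbs1, which encodes thrombospondin 1, was at 16.37 and 17.11 (-0.73).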

How the data were processed

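RNA was sequenced from 2 chondrocyte cultures, 1 per group. Per the submitters' processing notes, bcl2fastq 1.8.4, TopHat2 2.0.6, HTSeq and build mm10 were used. How HTSeq treated strand and multiply aligned reads, and with which annotation, is not given in the sources used here. The authors deposited log2 values of normalized counts per gene, with their mean and difference, per the file headers. The heading rLogFC and the narrow spread at low values point to a regularized log, which understates differences of scarce genes. Folds are folds of these values. Per-length levels used the exon union of GENCODE M21 (GRCm38, equivalent to mm10), with symbol and chromosome both matching for all 47 genes. This length includes rare exons, so shares between genes depend on it, while differences of 1 gene do not.

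The minimum was a mean of 50, or 5.64 as log2. The lowest mean in the deposited table was 5.00 as log2, so absence from the table does not show that a gene was not expressed. Called means at least 1.5-fold apart. Abundance ranges were divided at log2 values of 7, 9, 11 and 13. With 1 library per group there was no test, p-value or counting interval. Members, lists, motifs and thresholds were chosen with earlier results of these data known. Named were members at least 1.5-fold apart, the extremes and the most abundant member of each role group, 5 genes known for cartilage, and up to 3 genes of each other list by size. All other names were chosen after their values were seen. Numbered integrins only are members, so integrins with letters are given as partners. Duplicated symbols (1, on 6 rows) were left out of lists. Counting code was tested on simulated data. Alternatives were other minimums, fold thresholds, scalings and the mean. Python 3.11.15, pandas 2.3.3 and numpy 2.4.6 were used. The values of 1 of the 47 genes enter the counts and medians but are not reported here singly.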

Additional observations from a re-analysis of the deposited data

How the results depend on the processing

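Scaling shifted every difference by 0.00041 (median), 0.0077 (equal totals) or 0.015 (equal totals without Rn45s and Lars2). This turned the sign of 2 of 47 genes, Lama4 among them, and left all calls at 1.5-fold as they were. At the lower threshold (0.322 on the log2 scale) 11 genes were lower and 3 higher without such scaling, and at 2-fold 0 were lower and 0 higher. The 11 depend on the scaling. Lama5 fell short of 0.322 under equal totals (-0.317). Without Rn45s and Lars2 both Lama5 (-0.310) and Itga11 (-0.320) fell short. The minimum 10 times higher kept 32 of the 47, with 13 above 0 and 1 at least 1.5-fold lower (Nid2, since Lama2 was too scarce). It also left fewer genes in small groups and moved their medians: laminin-binding alpha subunits to -0.14, RGD-binding to 0.18, leukocyte beta subunits to 0.62, other beta subunits to -0.12, other basement membrane genes to 0.020, osteoclast markers to 0.57, skeletal muscle markers to 0.67 and pericyte and smooth muscle markers to -0.68. The mean in place of the median gave -0.048 for laminin-binding alpha subunits, -0.10 for other matrix proteins, 0.34 for macrophage and leukocyte markers, 0.37 for osteoclast, -0.080 for pericyte and smooth muscle and 0.21 for fibroblast and perichondrial markers. Of 154 alternative medians, 140 stayed within 0.1 of the value given. Removing the minimum changed none of the counts of the 47 genes, since all passed it. The depth is unknown, and among scarce genes the transform limits what a difference can show. No paired analysis was possible because a block needs at least 2 libraries per group and each had 1.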

Other observations

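Over 7 fibroblast and perichondrial markers the median difference was 0.35, with 4 above 0 and 3 below. The range ran from -0.27 (Twist1) to 0.65 (Lum). Of the 7, 1 marker passed 1.5-fold upwards and 0 downwards, where 2.25% and 0.952% of all genes did.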
